A study of Mus musculus with 60 samples.

Results

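The alar plate of the mouse embryonic brain at E14.5 (counted in days of embryonic development) was set against the ventral forebrain and the ventral hindbrain of the same stage, by bulk RNA sequencing. The comparison holds 9 of the 60 libraries of the series, chosen by tissue and stage label: 3 of alar plate, 3 of ventral forebrain and 3 of ventral hindbrain. The series sampled these regions with the ventral and dorsal midbrain from E11.5 to E14.5, around the time when midbrain dopaminergic neurons are made. All embryos, in every group, carried the TH-GFP genotype, a reporter in which the promoter of the tyrosine hydroxylase gene drives green fluorescent protein, and regions were dissected under a stereomicroscope that showed the fluorescence. The labels give the piece as alar plate without a position along the length of the brain, and they state neither pooling nor which embryo a tube came from. P-values therefore cover the spread between libraries, which may be technical. In bulk tissue, fewer cells of a type and less RNA per cell cannot be told apart.

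The neural tube is divided along its sides into a dorsal alar plate and a ventral basal plate, with the roof plate above and the floor plate below. Wnt and BMP signals from the roof plate favour dorsal fates, while Sonic hedgehog from the floor plate and notochord induces ventral fates. In the midbrain the alar plate makes the tectum, with its superior and inferior colliculus, while floor and basal plate make dopaminergic, motor and red nucleus neurons.

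Before the results, the libraries were checked against their labels with position markers, in RPKM (reads scaled to transcript length and library size). The 3 alar plate libraries carried midbrain markers (Otx2, En1, En2, Pax5, Tfap2b and Dmbx1) at summed levels of 281, 380 and 328 RPKM, against 5.21 to 17.8 RPKM in ventral forebrain and 156, 32.1 and 22.8 RPKM in ventral hindbrain replicates 2, 3 and 4. The 8 alar markers (Pax3, Pax7, Dbx1, Gli3, Zic1, Lhx2, Msx1 and Gsx1) summed to 105, 211 and 216 RPKM in alar plate replicates 2, 3 and 4, against 76.0 to 86.5 RPKM in ventral forebrain and 97.3, 25 and 18.1 RPKM in ventral hindbrain replicates 2, 3 and 4. Hoxa2 and Hoxb2, homeobox genes of the hindbrain, were listed at 0 in every alar plate library. Of the defining markers, 4 of 8 alar genes (Pax3, Pax7, Gli3 and Lhx2) passed the test described below as higher in the alar plate. Dbx1, Zic1, Msx1 and Gsx1 did not. Of 6 midbrain genes, 3 passed as higher (Otx2, Tfap2b and Dmbx1), while En1, En2 and Pax5 did not. Most of the midbrain sum in the alar plate came from Tfap2b and Otx2. Against ventral forebrain alone 5 of the 6 midbrain genes were higher. Against ventral hindbrain alone 3 were higher and 1 was lower.

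The library labelled ventral hindbrain replicate 2 stood apart from its group. It had 0.495 RPKM of Hoxa2, where replicates 3 and 4 had 6.59 and 11.6, and 2.04 RPKM of Tph2, the enzyme of serotonin synthesis, where they had 19.3 and 16.4. It had 58.0 RPKM of En2, a midbrain and isthmic homeobox gene, where they had 8.78 and 5.85. The library labelled alar plate replicate 2 stood apart less: its alar marker sum was the lowest of the group, and its levels across genes correlated almost equally with the other alar plate libraries (mean r = 0.983) and with the ventral hindbrain (0.982). The count over all genes and those of most lists are therefore given also without one or both of these libraries. Libraries held between 979197 and 6130311 recovered reads, and the limit that a count of 0 allows, 3 reads, was 0.489 to 3.06 RPM (reads scaled to library size, without length); it covers counting error only.

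Of 13719 genes tested, 311 differed between the alar plate and the mean of its ventral neighbours at an adjusted p below 0.05 and at least 2-fold (2.27%). The alar plate was higher for 111 of them (0.809%) and lower for 200 (1.46%). Without the libraries labelled ventral hindbrain replicate 2 and alar plate replicate 2, an alternative chosen after seeing the data, 182 genes were higher and 403 lower. In 93 of the 111 higher genes all 3 alar plate libraries lay above all 6 neighbour libraries, a placement that 4.26% of all tested genes had, and in 137 of the 200 lower genes they lay below all 6, which 5.47% of all tested genes did. The median log2 fold change over all tested genes was -0.02. Fold changes are on the log2(RPKM + 1) scale, which understates the change of low genes, and a gene at 0 in a whole group has a fold that depends on the added 1.

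The 12 named genes with the largest rise were all transcription factors, many of them known from the dorsal midbrain and pretectum. Tfap2b, an AP-2 transcription factor, had 189, 212 and 181 RPKM in the alar plate, against 0.185, 0.157 and 0.0529 RPKM in ventral forebrain and 28.1, 2.18 and 1.12 RPKM in ventral hindbrain. Each alar plate library was far above each neighbour library, and the highest neighbour was the library labelled ventral hindbrain replicate 2. The log2 fold change was 6.25 ± 0.66 (standard error, adjusted p = 0.000626). Its relative Tfap2d, known from the developing tectum, had 42.7, 46.1 and 59.6 RPKM in the alar plate, against at most 0.553 RPKM in ventral forebrain and 1.26 RPKM in ventral hindbrain, a change of 5.27 ± 0.26 (adjusted p = 1.55e-05). Both lie on the plus strand of chromosome 1 in GRCm38, Tfap2d at 19103022 to 19166346 and Tfap2b at 19208914 to 19238576. They are 42.6 kb apart with 0 annotated genes of GENCODE vM21 between them, so that these neighbours in the genome were the 2 genes with the largest rise.

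The POU factors of the Brn3 family, which act in sensory and tectal projection neurons, were high in the alar plate as a group. Pou4f1 (chromosome 14, 104461676 to 104467999, minus strand) had 39.2, 78.4 and 68.0 RPKM in the alar plate, against 0.309, 0.262 and 0.441 RPKM in ventral forebrain and 3.09, 0.750 and 0.766 RPKM in ventral hindbrain. The lowest alar plate value, in replicate 2, was still above every neighbour library, and the change was 5.10 ± 0.30 (adjusted p = 1.56e-05). Pou4f2 rose by 4.78 ± 0.25 and Pou4f3 by 3.16 ± 0.31 (adjusted p = 0.000408). Pou4f3 had 5.58, 13.7 and 9.69 RPKM in the alar plate, was listed at 0 in all ventral forebrain libraries and in 2 of 3 of ventral hindbrain, and had 1.12 RPKM in the remaining one, replicate 2.

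Otx2, the homeobox gene that defines forebrain and midbrain against hindbrain, had 61.8, 129.6 and 101.7 RPKM in the alar plate, against 4.40, 14.6 and 17.5 RPKM in ventral forebrain and 10.7, 3.57 and 2.04 RPKM in ventral hindbrain. The groups did not overlap, and the change was 3.57 ± 0.48 (adjusted p = 0.0024). Otx2 (chromosome 14, 48657677 to 48673819, minus strand) overlaps the antisense gene Otx2os1, and the strand setting of the counting is not given in the sources used here. The LIM homeobox genes Lhx9 and Lhx2 rose by 4.37 ± 0.43 and 3.41 ± 0.44. Lhx9 had 56.3, 87.0 and 90.4 RPKM in the alar plate, against 1.23 to 2.27 RPKM in ventral forebrain and 11.7, 1.58 and 2.61 RPKM in ventral hindbrain, with the replicate 2 library again the highest neighbour.

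Tal2, a bHLH factor needed for midbrain GABAergic neurons, had 20.8, 89.4 and 67.5 RPKM in the alar plate, against 0.322 to 1.93 RPKM in ventral forebrain and 15.3, 0.723 and 0.899 RPKM in ventral hindbrain. Its alar plate libraries differed more than 4-fold among themselves, and replicate 2 was close to the highest neighbour. The rise of 4.25 ± 0.71 (adjusted p = 0.00777) missed the threshold without alar plate replicate 4 (adjusted p = 0.0511). The homeobox gene Shox2, which overlaps Rsrc1 on the other strand, rose by 3.52 ± 0.44 and had 21.7, 50.8 and 46.5 RPKM in the alar plate, against 0 to 0.101 RPKM in ventral forebrain and 3.28, 14.46 and 18.04 RPKM in ventral hindbrain. Barhl2, a homeobox gene of dorsal neural tube and diencephalon, rose by 3.34 ± 0.23 with 27.8, 53.5 and 48.9 RPKM in the alar plate, 9.30 to 17.3 RPKM in ventral forebrain and at most 0.384 RPKM in ventral hindbrain. The 2 neighbours differed in which was lower for these genes, while in each case no alar plate library overlapped with a neighbour library.

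**Figure D1:**
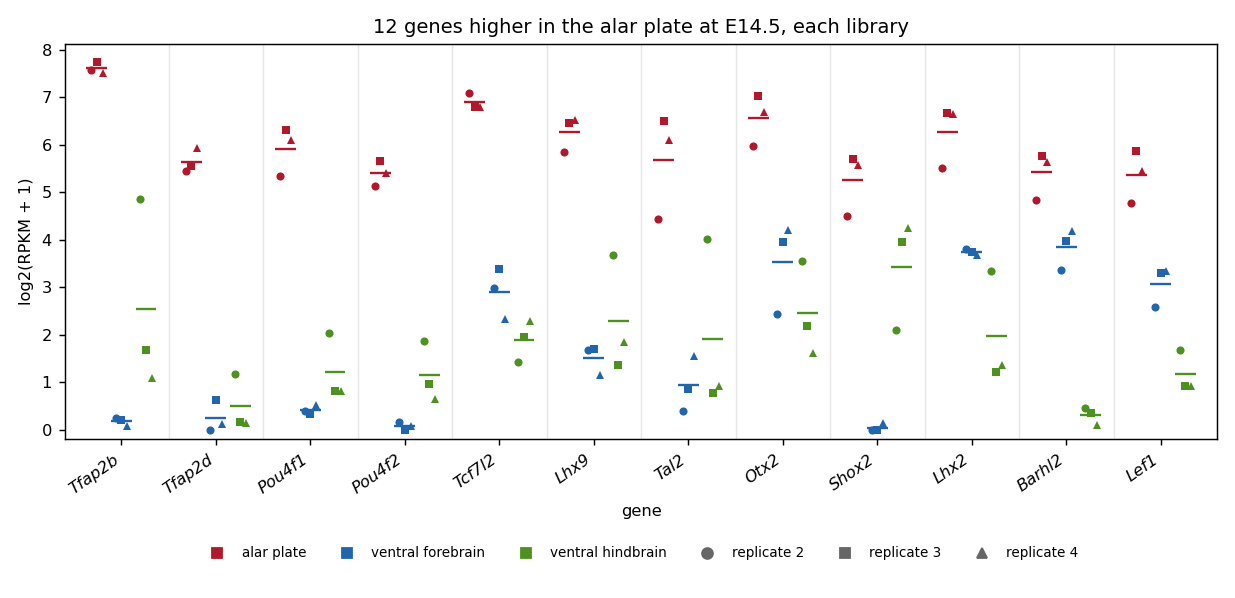
Levels of the 12 genes with the largest rise among those that passed every part of the naming rule, as log2(RPKM + 1) on the y axis, for each gene on the x axis. Points are single libraries, marked by replicate and coloured by region, and bars are group means; every alar plate point lies above every neighbour point, and for Tfap2b, Tal2 and Lhx9 the highest neighbour point is ventral hindbrain replicate 2.

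The promoters of 4 of these genes and of Dlk1, described below among the lower genes, are shown for the positions from which their transcripts start. They come from RefSeq on GRCm38.p6, 250 bases before to 50 bases after a listed start, read 5′ to 3′ on the gene's strand, with matches to any of 4 short motifs in capitals. The motifs, each searched on both strands and allowed to overlap, were an E-box of bHLH factors (CAGCTG), a homeodomain motif (TAATTA), a motif of OTX factors (GGATTA) and a motif of FOXA factors (TGTTTAC). Tfap2d has 3 listed starts and Otx2 has 4, of which the first is shown.
Tfap2b (chr1:19211804-19212103, plus strand): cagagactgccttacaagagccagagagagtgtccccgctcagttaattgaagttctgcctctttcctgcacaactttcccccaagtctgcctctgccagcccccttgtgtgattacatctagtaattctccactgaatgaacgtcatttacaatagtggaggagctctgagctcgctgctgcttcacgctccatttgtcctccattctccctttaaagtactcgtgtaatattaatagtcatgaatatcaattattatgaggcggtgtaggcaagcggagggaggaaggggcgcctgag
Tfap2d (chr1:19102772-19103071, plus strand): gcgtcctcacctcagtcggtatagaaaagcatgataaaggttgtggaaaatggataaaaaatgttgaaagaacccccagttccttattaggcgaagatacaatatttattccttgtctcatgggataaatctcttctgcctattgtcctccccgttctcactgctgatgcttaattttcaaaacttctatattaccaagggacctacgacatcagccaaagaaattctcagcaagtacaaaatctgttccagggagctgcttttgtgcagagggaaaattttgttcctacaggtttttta
Pou4f1 (chr14:104467950-104468249, minus strand): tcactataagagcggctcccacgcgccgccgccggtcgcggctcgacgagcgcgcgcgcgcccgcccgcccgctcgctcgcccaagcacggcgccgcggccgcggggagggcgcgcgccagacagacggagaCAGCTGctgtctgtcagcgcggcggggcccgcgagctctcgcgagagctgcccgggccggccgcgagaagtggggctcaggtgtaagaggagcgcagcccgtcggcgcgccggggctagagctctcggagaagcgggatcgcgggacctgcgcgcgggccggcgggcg
Otx2 (chr14:48667595-48667894, minus strand): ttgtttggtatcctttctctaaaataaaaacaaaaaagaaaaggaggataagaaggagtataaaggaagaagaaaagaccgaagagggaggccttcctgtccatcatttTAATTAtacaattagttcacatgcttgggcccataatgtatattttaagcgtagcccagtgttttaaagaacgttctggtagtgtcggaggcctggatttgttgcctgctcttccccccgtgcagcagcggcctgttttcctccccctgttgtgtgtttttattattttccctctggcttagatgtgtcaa
Dlk1 (chr12:109452573-109452872, plus strand): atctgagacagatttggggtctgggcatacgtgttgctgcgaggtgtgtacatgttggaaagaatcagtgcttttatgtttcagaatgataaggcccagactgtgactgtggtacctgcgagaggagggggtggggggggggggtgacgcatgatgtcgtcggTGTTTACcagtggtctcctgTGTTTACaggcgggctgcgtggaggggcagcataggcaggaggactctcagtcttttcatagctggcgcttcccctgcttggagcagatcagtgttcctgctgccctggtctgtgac
The sequence of Pou4f1 holds 1 E-box, that of Otx2 holds 1 TAATTA and that of Dlk1 holds 2 TGTTTAC matches, while those of Tfap2b and Tfap2d hold none of the 4. Of 27025 promoters with 1 entry a gene, 16.1% held CAGCTG, 5.31% TAATTA, 7.16% GGATTA and 3.55% TGTTTAC. Among the 80 higher genes with an entry the shares were 13.8%, 10%, 2.50% and 1.25%, and among the 145 lower genes with an entry 17.9%, 3.45%, 8.97% and 1.38%, in the same order of motifs. Of the 12 named higher genes 12 had an entry, and of these 1 held CAGCTG, 1 TAATTA and 0 either of the other motifs. Of the 12 named lower genes 8 had an entry, and of these 1 held TGTTTAC and 0 any of the other motifs. All named genes with a match are thus among those shown. A match of letters is a description and says nothing of binding.

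The 12 named genes with the largest drop included transcription factors of hypothalamic and dopaminergic neurons, secreted proteins and imprinted genes. Otp (chromosome 13, 94875602 to 94885130, plus strand), a homeobox gene of neuroendocrine hypothalamic neurons, had 0.774, 0.218 and 0 RPKM in the alar plate, against 45.4, 24.7 and 16.5 RPKM in ventral forebrain and 11.6, 74.2 and 65.03 RPKM in ventral hindbrain. All alar plate libraries were below 1 RPKM and all neighbour libraries above 10, and the change was -4.68 ± 0.54 (adjusted p = 0.000937), which missed the threshold with voom on recovered reads (adjusted p = 0.0991). Nr4a2 (chromosome 2, 57106830 to 57124003, minus strand), the nuclear receptor of dopaminergic neurons, had 3.02, 0.324 and 0.284 RPKM in the alar plate, against 16.5, 30.2 and 33.6 RPKM in ventral forebrain and 12.2, 16.3 and 19.2 RPKM in ventral hindbrain. It fell by 3.47 on the log2 scale, with a standard error of 0.37 (adjusted p = 0.000642). The highest alar plate library was replicate 2, which stayed below every neighbour library.

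Lmx1b, a LIM homeobox gene of dopaminergic and serotonergic lineages, had 0, 0 and 0.247 RPKM in the alar plate, against 8.51, 6.97 and 13.0 RPKM in ventral forebrain and 4.92, 11.1 and 6.08 RPKM in ventral hindbrain (log2 fold change -3.07 ± 0.25). C130021I20Rik, a transcript named after a clone and so passed over by the naming rule, had 0.380, 0.428 and 0.458 RPKM in the alar plate, against 14.1 to 26.4 RPKM in ventral forebrain and 11.4 to 19.8 RPKM in ventral hindbrain (-3.72 ± 0.21); it is given after its values were seen, as the called gene with the largest drop after Otp. Scg2, a secretogranin of dense-core vesicles, had 14.2, 5.73 and 5.62 RPKM in the alar plate, against 52.4, 53.3 and 34.6 RPKM in ventral forebrain and 31.7, 90.5 and 84.8 RPKM in ventral hindbrain (-2.64 ± 0.37, adjusted p = 0.00291). None of these 3 genes had an overlap between alar plate and neighbour libraries.

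Sulf1, which removes sulfate groups from heparan sulfate outside the cell, had 9.10, 1.13 and 2.92 RPKM in the alar plate, against 20.03, 35.8 and 47.8 RPKM in ventral forebrain and 11.7, 198 and 169 RPKM in ventral hindbrain. The groups did not overlap, but ventral hindbrain replicate 2 was over 10 times below the other hindbrain libraries. The change of -3.52 ± 0.83 (adjusted p = 0.0361) missed the threshold under 10 of 19 alternatives, with adjusted p up to 0.160. Of the secreted and membrane proteins, Cbln1, a synapse organiser, fell by 2.72 on the log2 scale with 13.0, 4.13 and 5.96 RPKM in the alar plate, 41.3 to 74.4 RPKM in ventral forebrain and 42.7 to 54.4 RPKM in ventral hindbrain. Mlc1, a membrane protein of astroglia, had 0.613, 0.230 and 0.336 RPKM in the alar plate, against 12.7, 9.25 and 9.12 RPKM in ventral forebrain and 5.15, 6.11 and 5.91 RPKM in ventral hindbrain. Its change of -2.65 ± 0.15 had an adjusted p of 1.56e-05, the smallest of the 12 named lower genes.

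Dlk1 (chromosome 12, 109452823 to 109463336, plus strand) and Peg10 (chromosome 6, 4747306 to 4760517, plus strand), both imprinted genes, were lower in a graded way. Dlk1, a membrane protein related to Notch ligands, had 9.20, 4.55 and 4.95 RPKM in the alar plate, against 94.8, 134 and 120.5 RPKM in ventral forebrain and 13.501, 18.3 and 14.51 RPKM in ventral hindbrain. The forebrain libraries were the highest and the hindbrain libraries lay between the other groups, with no overlap (-2.65 ± 0.20, adjusted p = 7.66e-05). Peg10, derived from a retrotransposon, had 35.4, 19.5 and 20.3 RPKM in the alar plate, against 219.9, 260.1 and 261.1 RPKM in ventral forebrain and 81.1, 73.1 and 65.4 RPKM in ventral hindbrain, the same order of groups (-2.43 ± 0.17). The remaining named lower genes, Ecel1, Gpr50 and Efcab1, changed by -2.68, -2.56 and -2.46, and none of their alar plate libraries overlapped with a neighbour library.

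**Figure D2:**
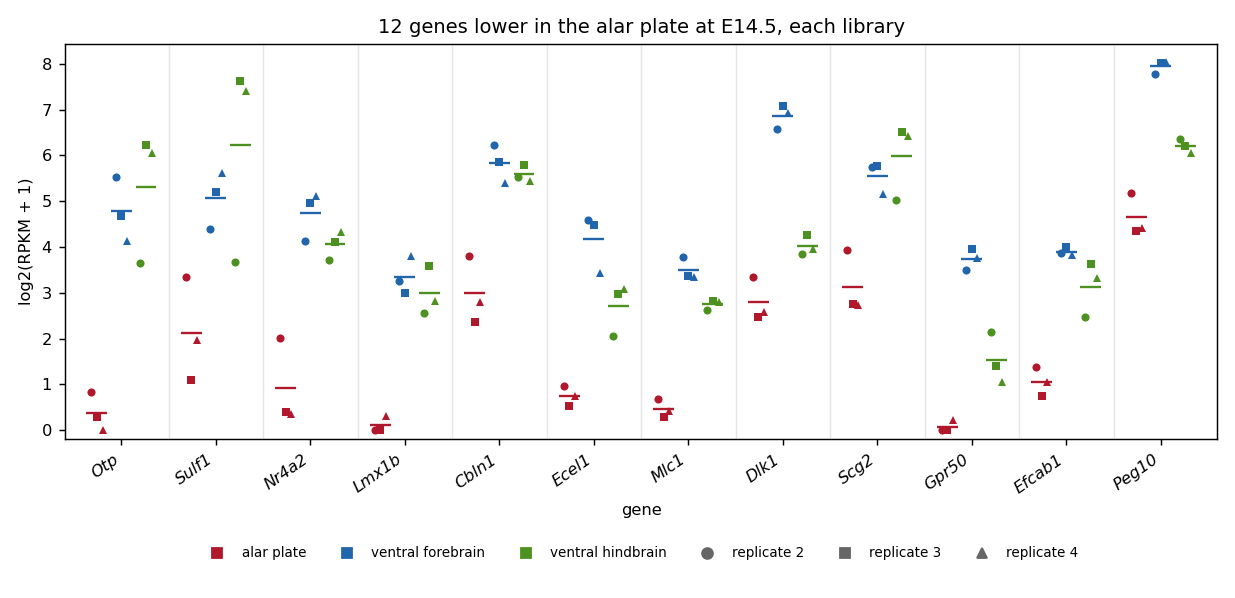
Levels of the 12 genes with the largest drop among those that passed every part of the naming rule, as log2(RPKM + 1) on the y axis, for each gene on the x axis. Points are single libraries, marked by replicate and coloured by region, and bars are group means; every alar plate point lies below every neighbour point, and for Otp and Sulf1 ventral hindbrain replicate 2 lies far below the other hindbrain points.

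Against each neighbour alone, the alar plate differed from ventral forebrain in 416 genes (3.03%), with 160 higher (1.17%) and 256 lower (1.87%), and from ventral hindbrain in 294 genes (2.14%), with 81 higher (0.590%) and 213 lower (1.55%). The hindbrain count rests on which libraries enter: it was 552 without alar plate replicate 2, 449 without ventral hindbrain replicate 2, and 136 to 148 without alar plate replicate 3 or 4 or without ventral hindbrain replicate 3 or 4. Both comparisons share the alar plate libraries, so their values are given side by side. At least a 2-fold difference of the same sign against each neighbour was seen in 69 of the 111 higher genes and 93 of the 200 lower genes, which are 0.503% and 0.678% of the genes tested. Many called genes rested on 1 neighbour. Of the 111 higher genes, 55 were called against both neighbours, 46 against forebrain alone, 8 against hindbrain alone and 2 against neither. Of the 200 lower genes, these counts were 65, 87, 37 and 11. Irx2, an Iroquois homeobox gene, had 27.5, 34.2 and 32.9 RPKM in the alar plate, against 0 to 0.469 RPKM in ventral forebrain and 34.7, 33.0 and 29.1 RPKM in ventral hindbrain. Its log2 fold change was 4.70 against forebrain and -0.03 against hindbrain, where the values overlap. Mab21l1, of the Mab21 family of eye and midbrain development, rose by 5.23 against forebrain and had a difference of 0.73 against hindbrain (adjusted p = 0.0884).

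Among the lower genes, Nkx2-1, the homeobox gene of the ventral hypothalamus, had 0, 0 and 0.0550 RPKM in the alar plate, against 48.3, 76.1 and 80.5 RPKM in ventral forebrain, and was listed at 0 in ventral hindbrain. Its change was -6.05 against forebrain and 0.03 against hindbrain. Lhx4, a LIM homeobox gene of motor neurons, showed the opposite order, with a change of -0.09 against forebrain and -2.47 against hindbrain. It was listed at 0 in the alar plate and had 3.80, 5.19 and 4.68 RPKM in ventral hindbrain. Sox1, a SoxB gene of neural progenitors, had 5.76, 6.08 and 5.60 RPKM in the alar plate, against 21.3 to 30.9 RPKM in ventral forebrain and 17.0 to 18.7 RPKM in ventral hindbrain, so that it was lower against each, by -2.03 and -1.46.

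**Figure D3:**
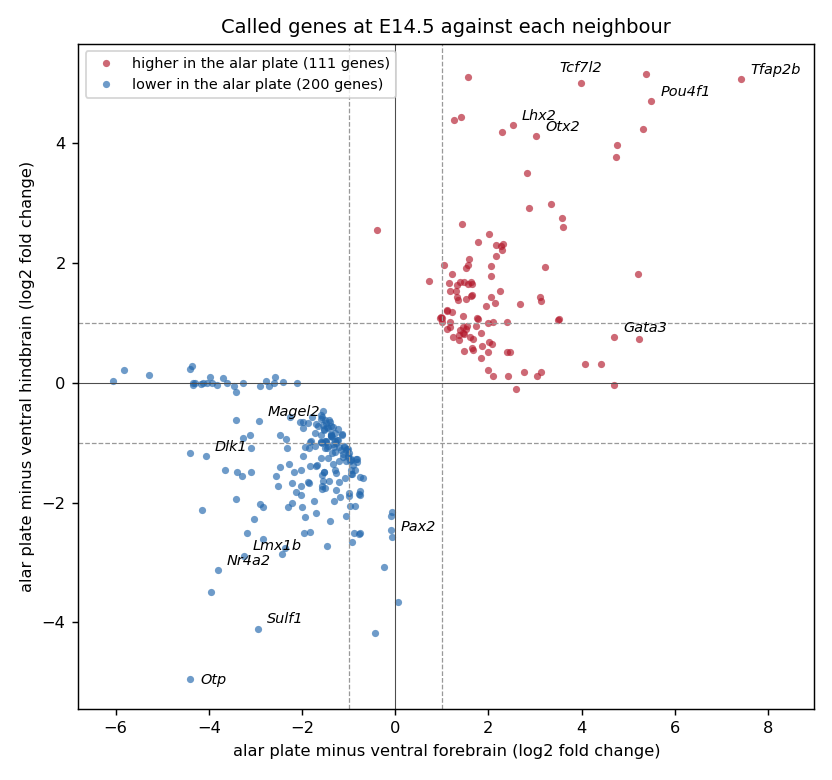
Log2 fold change of the alar plate against ventral forebrain (x axis) and against ventral hindbrain (y axis) for the 311 genes called against their mean, with 111 higher in red and 200 lower in blue; dashed lines mark a 2-fold difference. Tfap2b, Pou4f1 and Tcf7l2 lie high on both axes and Otp low on both, while Gata3 lies to the right near the middle of the y axis.

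Called genes were also counted by functional list. The lists were chosen with earlier results of these data known, and some genes belong to several lists, so the counts are a description. Counts against the mean of the neighbours with all 9 libraries can be read against the 0.809% higher and 1.46% lower of all genes tested. Other fits called other numbers over all genes: 175 higher and 393 lower of 13719 with voom. They were 137 and 277 of 13735 without ventral hindbrain replicate 2, and 150 and 313 of 13741 without alar plate replicate 2. Without both there were 182 and 403 of 13754. Counts against 1 neighbour have the shares given above for it. Of the dorsal patterning factors, 17 of 23 were tested, and 5 rose and 0 fell (Pax3, Pax7, Gli3, Lhx2 and Lhx9), with a list median of 0.67; without the libraries labelled ventral hindbrain replicate 2 and alar plate replicate 2 there were 8 and 0. Pax7, a paired-box gene of alar plate progenitors and tectal neurons, had 15.2, 36.4 and 26.9 RPKM in the alar plate, against 0.733 to 2.10 RPKM in ventral forebrain and 11.0, 13.7 and 9.46 RPKM in ventral hindbrain (2.29 ± 0.26). Its relative Pax3 rose by 2.27 ± 0.28, but there the lowest alar plate library, at 7.38 RPKM, was below ventral hindbrain replicate 2 at 8.30 RPKM. Gli3, the repressor arm of hedgehog signalling, changed by 1.41 ± 0.35 (adjusted p = 0.0468), a call lost under 10 of 19 alternatives (adjusted p up to 0.209).

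Of the factors of midbrain position and tectum, 32 of 33 were tested, and 16 rose and 1 fell, with a median of 1.79. They took in the Tfap2, Pou4f, Barhl, Mab21l and Irx genes, Dmbx1, Ebf1, Sox14 and Shox2, and the gene that fell was Pax2. Against ventral forebrain alone 21 rose and 0 fell, and against ventral hindbrain alone 10 rose and 3 fell, in comparisons that share the alar plate libraries. Without the library labelled ventral hindbrain replicate 2, 20 rose and 1 fell, and without that and alar plate replicate 2 the counts were the same. Dmbx1, a paired-like homeobox gene of the midbrain, had 9.97, 17.2 and 12.8 RPKM in the alar plate, against at most 0.247 RPKM in ventral forebrain and 6.96, 0.272 and 0.226 RPKM in ventral hindbrain (3.10 ± 0.52). En1, En2 and Pax5, genes of the isthmus and midbrain, did not pass. Pax5 had 7.59, 0.214 and 5.74 RPKM in the alar plate, was listed at 0 in ventral forebrain and had 24.8, 3.95 and 2.28 RPKM in ventral hindbrain, so that replicate 2 of the hindbrain exceeded every alar plate library. Pax2, which marks isthmus and inhibitory neurons, was low in alar plate and forebrain and had 6.23, 4.46 and 6.32 RPKM in ventral hindbrain.

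Of the floor and basal plate factors, 17 of 18 were tested, and 0 rose and 10 fell, with a median of -1.98. Without the library labelled ventral hindbrain replicate 2, 14 fell, without that and alar plate replicate 2, 16 fell, and with voom on recovered reads 5 fell. With all 9 libraries, 0 rose and 9 fell against ventral forebrain alone, and 0 rose and 3 fell against ventral hindbrain alone. Foxa1, a forkhead factor of the floor plate, had 0, 0 and 0.0496 RPKM in the alar plate, against 13.1, 17.1 and 22 RPKM in ventral forebrain and 0, 8.82 and 7.77 RPKM in ventral hindbrain (-3.13 ± 0.62, adjusted p = 0.0168). The overlap with the alar plate came from ventral hindbrain replicate 2, at 0. Shh, for the ligand Sonic hedgehog, had 0.718, 0.101 and 0.0590 RPKM in the alar plate, against 6.67, 10.3 and 16.5 RPKM in ventral forebrain and 0.670, 17.9 and 10.9 RPKM in ventral hindbrain (-2.85 ± 0.65, adjusted p = 0.031), with the same hindbrain library in the alar plate range. The Shh call was lost under 8 of 19 alternatives and that of Lmx1a (-2.79 ± 0.65) under 9, with adjusted p up to 0.139 and 0.145. Sim1 and Nkx2-4, which the list also holds, were called for the forebrain alone: Sim1 changed by -3.97 against forebrain and by 0.10 against hindbrain. Slit2, a midline repellent of axons, fell by 1.98 on the log2 scale with nearly equal alar plate values of 4.85, 5.01 and 5.16 RPKM, against 17.6, 27.9 and 33.0 RPKM in ventral forebrain and 9.29, 32.8 and 26.4 RPKM in ventral hindbrain.

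Of the forebrain position factors, 27 of 29 were tested, and 2 rose (Emx2 and Tcf7l2) and 17 fell, among them Nkx2-1, Dlx1, Dlx2, Otp, Vax1, Fezf1 and Fezf2, with a median of -1.75; with voom on recovered reads 3 rose and 6 fell. Without both libraries that stood apart, 2 rose and 16 fell. Most of these calls rested on the forebrain: against ventral forebrain alone 1 rose and 19 fell, and against ventral hindbrain alone 3 rose and 2 fell. Emx2, a homeobox gene of the dorsal telencephalon that is also active in the midbrain roof, had 26.5, 34.6 and 25.8 RPKM in the alar plate, against 5.94, 10.2 and 17.2 RPKM in ventral forebrain and 1.37, 0.0833 and 0 RPKM in ventral hindbrain (2.92 ± 0.33). Dlx1, of forebrain GABAergic neurons, had 0, 0.388 and 0.113 RPKM in the alar plate and 95.7, 58.2 and 47.5 RPKM in ventral forebrain, and was listed at 0 in ventral hindbrain. Tcf7l2, the Wnt effector that marks thalamus and pretectum, had 136, 111 and 109 RPKM in the alar plate, against 6.89, 9.44 and 4.02 RPKM in ventral forebrain and 1.69, 2.90 and 3.89 RPKM in ventral hindbrain (4.498 ± 0.24). Of 8 thalamic markers tested, 3 rose (Tcf7l2, Lef1 and Lhx9) and Gbx2 fell; the 8 summed to 263 to 295 RPKM in the alar plate, against 49.1 to 51.3 RPKM in ventral forebrain and 89.8, 30.6 and 31.8 RPKM in ventral hindbrain. Gbx2, a defining marker of the thalamus, had at most 0.125 RPKM in the alar plate, at most 0.231 RPKM in ventral forebrain and 5.83, 2.73 and 3.77 RPKM in ventral hindbrain. Of the hindbrain position factors, 7 of 24 were tested and 0 were called by limma or by voom (1 at an unadjusted p below 0.05), and 2 fell without the library labelled ventral hindbrain replicate 2.

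**Figure D4:**
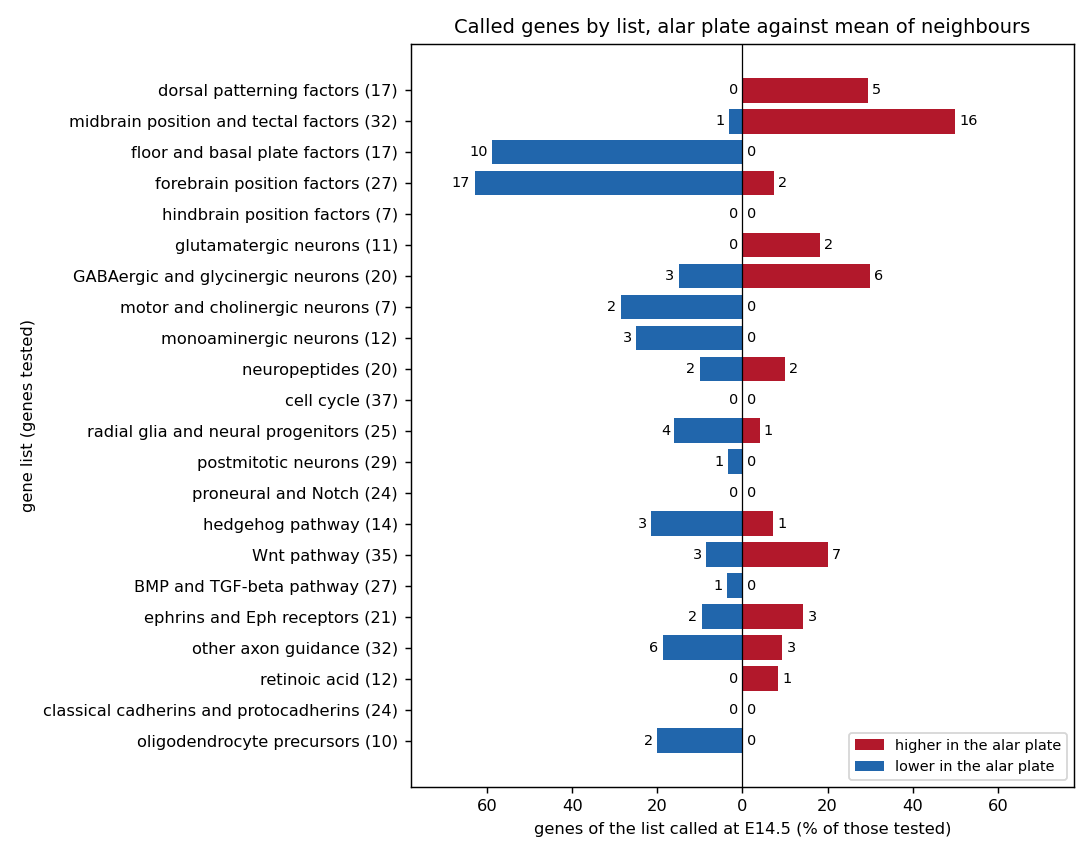
Share of the tested genes of each functional list that was called at E14.5 (x axis, percent), higher in the alar plate to the right and lower to the left, with the number of genes at the end of each bar and the number tested beside the name of each list (y axis). The tectal and dorsal lists extend to the right, the floor and basal plate and forebrain lists to the left, and cell cycle, proneural and cadherin lists have no bar.

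Genes of inhibitory neurons moved in both directions. Of 20 tested genes of GABAergic and glycinergic neurons, 6 rose (Gata3, Tal1, Tal2, Sox14, Helt and Sst) and 3 fell (Pax2, Dlx1 and Dlx2). Without both libraries that stood apart, 5 rose and 5 fell. Gata3 and Tal1, the selector factors of midbrain and brainstem inhibitory neurons, had 26.6 to 32.9 and 33.0 to 41.1 RPKM in the alar plate, against at most 0.308 and 1.20 RPKM in ventral forebrain and 8.67 to 25.3 and 20.5 to 35.6 RPKM in ventral hindbrain. Against hindbrain alone their differences of 0.76 and 0.32 did not pass. Helt, a bHLH factor that specifies midbrain GABAergic neurons, rose by 2.06 ± 0.31 and was above the neighbours in every library (2.43, 8.04 and 5.70 RPKM in the alar plate, against at most 1.16 RPKM in ventral forebrain and 0.568 RPKM in ventral hindbrain). Gad1 and Gad2, the enzymes of GABA synthesis, did not pass, with changes of 0.14 ± 0.25 and 0.13 ± 0.25.

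Of 11 tested glutamatergic genes, 2 rose (Pou4f1 and Barhl1) and 0 fell. Without both libraries that stood apart, 4 rose and 2 fell. The vesicular transporter Slc17a6 had 53.7, 56.6 and 61.7 RPKM in the alar plate, against 35.02, 38.6 and 50.1 RPKM in ventral forebrain and 24.2, 17.4 and 19.7 RPKM in ventral hindbrain; its change of 0.97 ± 0.13 (adjusted p = 0.00212) was short of 2-fold. Of 12 tested monoaminergic genes, 0 rose and 3 fell (Nr4a2, Slc18a2 and Ddc). In the library labelled ventral hindbrain replicate 2 serotonergic genes were low. When it was left out 8 fell, and when alar plate replicate 2 was also left out 6 fell. Slc18a2, the vesicular monoamine transporter, had 1.02, 1.22 and 2.59 RPKM in the alar plate, against 12.7, 7.06 and 7.48 RPKM in ventral forebrain and 5.82, 23.96 and 16.6 RPKM in ventral hindbrain (-2.24 ± 0.38). The Ddc call was lost under 11 of 19 alternatives (adjusted p up to 0.187). Th, whose promoter drives the reporter, had 0.267, 0.903 and 1.93 RPKM in the alar plate, against 10.1, 8.25 and 7.21 RPKM in ventral forebrain and 4.49, 0.484 and 1.10 RPKM in ventral hindbrain, and its change did not pass (adjusted p = 0.0776).

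Of 7 tested motor and cholinergic genes, 0 rose and 2 fell (Lhx4 and Isl1). Without both libraries that stood apart, 2 rose and 2 fell. Isl1, a LIM homeobox gene of motor, sensory and hypothalamic neurons, had 0.567 to 1.43 RPKM in the alar plate, against 36.6 to 47.5 RPKM in ventral forebrain and 0.0856 to 2.30 RPKM in ventral hindbrain, so that its call rested on the forebrain. Among 20 tested neuropeptide genes, Tac1 and Sst rose and Cbln1 and Pmch fell. Tac1, the gene of substance P, had 26.7, 15.8 and 21.1 RPKM in the alar plate, against 11.3, 8.11 and 9.54 RPKM in ventral forebrain and 4.4975, 3.57 and 5.92 RPKM in ventral hindbrain (1.501 ± 0.18). The Sst call (1.21 ± 0.29, adjusted p = 0.0389) was lost under 8 of 19 alternatives. Pmch, of lateral hypothalamic neurons, had 34.4 to 37.8 RPKM in ventral forebrain and at most 1.65 RPKM in the other libraries. Its call was lost under 2 of 19 alternatives (adjusted p up to 0.152). Without both libraries that stood apart, 1 neuropeptide gene rose and 3 fell, and with voom 2 rose and 1 fell.

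Signalling genes moved in both directions. Of 35 tested Wnt pathway genes, 7 rose (Fzd1, Lef1, Tcf7l2, Axin2, Sp5, Dkk1 and Wif1) and 3 fell (Wnt5a, Wnt8b and Fzd5), with a list median of 0.03. When both libraries that stood apart were left out, 9 rose and 4 fell. Lef1, Tcf7l2, Axin2, Sp5 and Dkk1 are known as nuclear effectors or common targets of canonical Wnt signalling, and Wif1 as a secreted inhibitor. Wnt8b, a ligand, had at most 0.188 RPKM in the alar plate and 0.267 RPKM in ventral hindbrain, and 9.46 to 24.6 RPKM in ventral forebrain. Lef1 had 26.2, 57.2 and 42.9 RPKM in the alar plate, against 4.98, 8.90 and 9.12 RPKM in ventral forebrain and 2.20, 0.890 and 0.886 RPKM in ventral hindbrain (3.24 ± 0.28). Fzd1, a Wnt receptor, had 46.1, 52.1 and 56.0 RPKM in the alar plate, against 8.24 to 12.8 RPKM in ventral forebrain and 8.89 to 10.04 RPKM in ventral hindbrain, and changed almost equally against each (2.16 and 2.30). Axin2, a feedback inhibitor, was just past 2-fold, at 1.04 ± 0.22 (adjusted p = 0.0252), with 10.7, 17.4 and 14.4 RPKM in the alar plate and no neighbour library above 8.94 RPKM.

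Of 14 tested hedgehog genes, 1 rose (Gli3) and 3 fell, among them Shh and Ptch1; with voom 5 rose and 2 fell. When both libraries that stood apart were left out, 5 rose and 3 fell. Ptch1, receptor and target of the pathway, had 12.1, 5.77 and 8.63 RPKM in the alar plate, against 24.8 to 27.3 RPKM in ventral forebrain and 14.0, 22.4 and 22.8 RPKM in ventral hindbrain (-1.30 ± 0.21). The groups did not overlap, with alar plate replicate 2 and ventral hindbrain replicate 2 nearest to each other. Of 27 tested BMP and TGF-beta genes 0 rose and Tgfb2 fell, and of 12 tested retinoic acid genes Crabp1, a carrier of retinoic acid, rose and 0 fell. Crabp1 changed by 2.60 against forebrain and by -0.10 against hindbrain, where the libraries overlapped.

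Of 21 tested ephrins and Eph receptors, Efna2, Epha8 and Epha10 rose and Efnb2 and Epha3 fell. With the same libraries left out, 5 rose and 3 fell. Epha8, a receptor known from the superior colliculus, had 17.8, 11.4 and 13.8 RPKM in the alar plate, against 2.14 to 3.25 RPKM in ventral forebrain and 4.26 to 4.81 RPKM in ventral hindbrain (1.75 ± 0.15). Epha3 had 6.21, 3.56 and 2.56 RPKM in the alar plate, against 8.36 to 18.2 RPKM in ventral forebrain and 13.9 to 18.6 RPKM in ventral hindbrain (-1.67 ± 0.26). Of 32 other guidance genes tested, 3 rose (Draxin, Sema3f and Cntn2) and 6 fell (Slit2, Robo3, Unc5a, Sema3a, Sema5a and Nrp2). Without the library labelled ventral hindbrain replicate 2, 9 fell, and without both 4 rose and 9 fell. Nrp2, a semaphorin receptor, had 11.0, 6.69 and 6.61 RPKM in the alar plate, against 31.2 to 35.2 RPKM in ventral forebrain and 27.9, 53.2 and 46.8 RPKM in ventral hindbrain (-2.09 ± 0.21).

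Lists of progenitor and neuronal state differed in how many of their genes were called. By limma 0 of 37 cell cycle genes were called (3 at an unadjusted p below 0.05, 0 by voom), and 0 of 24 tested proneural and Notch genes (10 at an unadjusted p below 0.05, 1 lower by voom). Mki67, a proliferation marker, had 2.83, 12.49 and 14.0 RPKM in the alar plate, against 8.63 to 17.3 RPKM in ventral forebrain and 4.71 to 11.6 RPKM in ventral hindbrain. The lowest Mki67 value was that of alar plate replicate 2, and without that library 1 cell cycle gene and 4 proneural and Notch genes rose and 1 of the second list fell. When both were left out, the counts were 2 and 5 higher and 0 and 1 lower. Of 25 radial glia and progenitor genes, Tnc rose and 4 fell (Sox1, Sox2, Fabp7 and Hopx), with 18 at an unadjusted p below 0.05. In that list 7 fell when either of the libraries that stood apart was left out, 2 rose and 9 fell without both, and with voom 2 rose and 8 fell. Tnc, a matrix glycoprotein of radial glia, differed by 2.09 from forebrain and by 0.11 from hindbrain. Sox2 was just past 2-fold (-1.04 ± 0.19), a call lost under 4 of 19 alternatives. Of 29 tested genes of postmitotic neurons, 0 rose and Scg2 fell, and of 10 oligodendrocyte precursor genes 0 rose and Olig1 and Olig2 fell, where Olig1 was lost under 11 of 19 alternatives and 4 fell without both libraries. Of 24 cadherin and protocadherin genes 0 were called by limma (9 at an unadjusted p below 0.05, 1 lower by voom); without alar plate replicate 2, 4 fell, and without both libraries 3 fell.

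Markers of other tissues moved with some of these groups, and their part in the results was not tested. Of 9 tested meningeal markers 0 were called (2 at an unadjusted p below 0.05, 0 by voom). The 10 of the list summed to 11.4, 92.2 and 21.4 RPKM in the alar plate, against 37, 188 and 88 RPKM in ventral forebrain and 15, 19 and 18.4 RPKM in ventral hindbrain, so that alar plate replicate 3 stood above its group and in the forebrain range. Of 10 vessel and pericyte markers 0 were called (3 at an unadjusted p below 0.05, 0 by voom), but their sum of 63.1 to 86.1 RPKM in the alar plate was below the 90.7 to 109 RPKM of ventral forebrain and overlapped the 81.4 to 88.1 RPKM of ventral hindbrain. Kdr, the VEGF receptor of endothelium, had 6.35 to 7.45 RPKM in the alar plate and 8.10 to 11.99 RPKM in the neighbours, a difference of -0.50 ± 0.09 (adjusted p = 0.0124) that was short of 2-fold. Of 10 microglial markers 0 were called (3 at an unadjusted p below 0.05, 2 lower by voom), with sums of 13.0 to 22.6 RPKM in the alar plate, 21.5 to 38.2 RPKM in ventral forebrain and 16.5 to 22.4 RPKM in ventral hindbrain. Of 8 tested erythroid markers 0 were called (0 at an unadjusted p below 0.05, 0 by voom).

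Choroid plexus markers, 8 in number and among them Lmx1a, summed to 1.99, 12.4 and 2.13 RPKM in the alar plate, against 16.5 to 35.8 RPKM in ventral forebrain and 12.4, 1.93 and 1.22 RPKM in ventral hindbrain. Only 3 of the 8 were tested, and Lmx1a was the 1 called. The 9 pituitary markers summed to 10.5 to 12.6 RPKM in the alar plate, against 23.9 to 48.9 RPKM in ventral forebrain and 4.96 to 7.51 RPKM in ventral hindbrain, with 6 to 8 of them at 0 in every library; of 4 tested, Lhx4 fell. The 10 markers of peripheral glia and sensory ganglia summed to 19.4 to 35.4 RPKM in the alar plate, against 54.1 to 71.7 RPKM in ventral forebrain and 11.0 to 17.9 RPKM in ventral hindbrain, and 2 of 8 tested were called, Pou4f3 higher and Isl1 lower; with voom 4 were higher and 0 lower. Of 5 tested cerebellar and rhombic lip markers, Lhx9 and Barhl1 rose and Cbln1 fell, and their 8 markers summed to 108 to 148 RPKM in the alar plate, 68.3 to 97.1 RPKM in ventral forebrain and 57.5 to 96.8 RPKM in ventral hindbrain.

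The same regions were compared at the 2 preceding stages. By their run prefix, the E13.5 libraries were of another run than those of E14.5. The prefix of the E12.5 libraries names only the stage, so their run is not known. Differences from E14.5 may thus reflect the stage, the sequencing run or both. The stages share no libraries. At E12.5, 173 of 13407 genes were called (1.29%), with 53 higher (0.395%) and 120 lower (0.895%), and at E13.5, 165 of 13575 were (1.22%), with 72 higher (0.530%) and 93 lower (0.685%). Of the 111 genes higher at E14.5, 45 were also higher at E13.5, which is 40.5% of the E14.5 list and 62.5% of the E13.5 list, and 23 were also higher at E12.5, which is 20.7% and 43.4%. Of the 200 lower genes, 55 were lower at E13.5 (27.5% and 59.1%) and 41 at E12.5 (20.5% and 34.2%). None was called in the opposite direction at either stage. The median log2 fold change of the genes higher at E14.5 was 0.82 at E12.5 and 1.20 at E13.5, against 1.55 at E14.5, where they were chosen. For the lower genes it was -0.90 and -0.86, against -1.42 at E14.5.

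At all 3 stages 19 genes were higher, among them Pou4f1, Pou4f2, Pou4f3, Lhx9, Tal2, Otx2, Barhl2, Lef1, Emx2, Helt, Fzd1, Cntn2 and Tac1, and 19 were lower, among them Otp, Nr4a2, Foxa1, Shh, Cbln1, Scg2, Nrp2, Slit2, Epha3, Efcab1 and Magel2. Pou4f1 changed by 3.51 ± 0.43, 3.74 ± 0.40 and 5.10 ± 0.30 at E12.5, E13.5 and E14.5. Tfap2b, with the largest change at E14.5, changed by 3.57 ± 0.96 at E12.5 (adjusted p = 0.0922), 4.27 ± 0.92 at E13.5 and 6.25 ± 0.66 at E14.5. Tcf7l2 changed by 1.84 ± 0.46 at E12.5 (adjusted p = 0.0763), 3.29 ± 1.13 at E13.5 (adjusted p = 0.218) and 4.498 ± 0.24 at E14.5. Dlk1 changed by -0.97 ± 0.39 at E12.5, -1.40 ± 0.22 at E13.5 and -2.65 ± 0.20 at E14.5. The difference between the E14.5 and the E13.5 contrast was tested itself: 0 of 13965 genes passed limma's test (714 at an unadjusted p below 0.05, smallest adjusted p = 0.0819), and 0 passed with voom, so no gene is shown to differ between these stages.

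**Figure D5:**
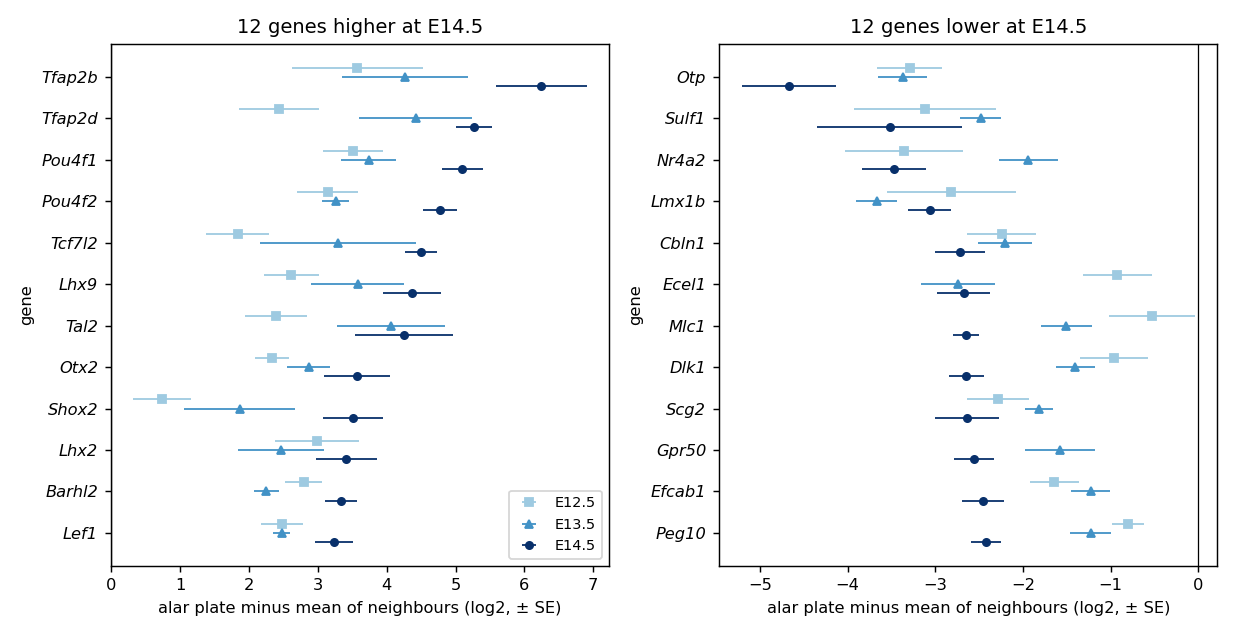
Log2 fold change of the alar plate against the mean of its ventral neighbours (x axis, with standard error) at E12.5, E13.5 and E14.5, for the 12 named higher genes on the left and the 12 named lower genes on the right (y axis). The points of the 3 stages lie on the same side of 0 for each gene that has a value, and Tfap2b and Otp have the largest changes at E14.5.

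The midbrain pieces of E14.5 were in another run than the 9 libraries, and their levels are given only beside those of the alar plate, with no comparison. Tfap2b averaged 194 ± 15.9 RPKM in the alar plate and 215 RPKM in dorsal midbrain, and Pou4f2 averaged 41.7 ± 7.67 RPKM and 30.8 RPKM (SD over 3 libraries for the alar plate). Tcf7l2 averaged 118 ± 14.8 RPKM in the alar plate, with 30.9 RPKM in dorsal midbrain and 7.44 RPKM in ventral midbrain. Otx2 averaged 97.7 ± 34.1 RPKM in the alar plate, with 199 RPKM in dorsal midbrain and 27.4 RPKM in ventral midbrain. Nr4a2 averaged 1.21 ± 1.57 RPKM in the alar plate, with 0.486 RPKM in dorsal midbrain and 82.7 RPKM in ventral midbrain.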

How the data were processed

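Bulk RNA was sequenced as Illumina TruSeq libraries from RNeasy-isolated total RNA, per the labels' protocols. The submitters' processing notes name Bowtie and the build mm10; for the counter, the annotation release and the strand setting, nothing is given in the sources used here. The authors deposited RPKM, and 100% of the values came out as whole reads within 0.001 of a read once multiplied by the authors' listed transcript length (in bases) and divided by each library's step. The table lists 24378 features, of which 27 names have a date form, 2 names are repeated and 1207 end in a locus suffix, and none of these was removed.

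From these values log2(RPKM + 1) was fitted with limma 3.58.1 (trend) in R 4.3.3, for genes averaging 1 RPKM or more in some group of that fit; a call needed an adjusted p (Benjamini-Hochberg, over all genes of the fit) below 0.05 and a 2-fold change. Each E14.5 contrast was fitted on the 9 libraries of the same run prefix. E12.5 and E13.5 were each fitted on 9 libraries of the same prefix, which for E12.5 names only the stage. The closest replicates (ventral hindbrain 3 and 4) had a chi-square per feature of 1.46, above the 1 of counting noise. Same-numbered libraries of alar plate and ventral forebrain at E14.5 deviated together in each of the 3 pairs (r = 0.165 to 0.333). Among unlike numbers, ventral forebrain 4 and alar plate 3 also reached 0.177, and the rest were negative. At E13.5 same-numbered alar plate and ventral hindbrain libraries deviated together (0.154 to 0.391), with unlike pairs at most 0.103. Same-numbered alar plate and ventral forebrain libraries of E13.5 had -0.0272, 0.018 and 0.271, while alar plate 4 and ventral forebrain 5 had 0.255. The numbers were taken to pair alar plate with forebrain at E14.5 and with hindbrain at E13.5, from the data alone, and this pairing is uncertain. Alternatives were other pseudocounts, filters and scalings, voom on recovered reads, a replicate block, all 15 libraries of E14.5 in 1 fit and leaving out libraries. Among called genes with 5 RPKM or more in a group, no overlap with the neighbour libraries and a 2-fold change against each neighbour, the text names the 12 that changed most each way (predicted genes and clones passed over), up to 4 called members of each of 35 lists with the smallest adjusted p or, with 0 called, up to 2, and the position markers; other genes were named after their values were seen. The regions compared, the lists and these rules were chosen with earlier results of these data known. Gene positions are from GENCODE vM21 (GRCm38), read with Python 3.11.15, pandas 2.3.3 and matplotlib 3.10.9. A called gene of the hedgehog list is not reported here.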

Additional observations from a re-analysis of the deposited data

How the results depend on the processing

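Of 85 genes picked by the naming rules, not all of them given above, 68 were called at E14.5. Of these, 45 kept the call under every alternative run and 23 lost it under at least 1, with 0 reversals. Genes named after their values were seen, such as Foxa1, Slit2, Helt and Emx2, were not among the 85. Their calls were not checked in this way. The count of 311 was 260 to 391 under other pseudocounts, filters and scalings, 568 with voom on recovered reads and 585 without both libraries that stood apart (chosen after seeing the data). The hindbrain count of 294 was 724 with voom and 791 without both libraries. At E12.5 a filter of 5 RPKM gave 109 in place of 173, and the difference between the E14.5 and E13.5 contrasts gave 2 genes with a pseudocount of 0.1 RPKM and 6 without both libraries, in place of 0. Leaving out 1 library at a time gave 197 to 463 genes against the mean of the neighbours (lowest without alar plate replicate 4), 311 to 506 against forebrain, 136 to 552 against hindbrain, 90 to 242 at E13.5 (90 and 95 without alar plate replicate 5 or 6), 98 to 449 at E12.5 (98 without ventral hindbrain replicate 3, 449 without ventral forebrain replicate 1, 105 and 109 without alar plate replicate 1 or ventral forebrain replicate 2) and 0 to 5 for the difference of contrasts. The cause was not tested. For alar plate and ventral hindbrain at E14.5 the deviations of same-numbered libraries had r of -0.115 to -0.0398, so at this stage the numbers were taken to pair the alar plate with the forebrain alone. The replicate block nevertheless joined same-numbered libraries of every region in the fit, hindbrain included. It is therefore not a fit of that pairing alone. With this block the counts were 292 against the mean, 395 against forebrain and 243 against hindbrain. They were 169 at E13.5, 134 at E12.5 and 0 for the difference of contrasts. Of the 416 genes called against forebrain without the block, 382 were called the same way with it. Of the 85 genes picked by the naming rules, the calls of Sulf1, Ddc, Gli3, Olig1 and Lmx1a against the mean were lost. The edgeR test was not run. The shallowest library, ventral forebrain replicate 3 with 979197 reads, limits low genes most.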

Other observations

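The following groups of genes were noticed after their values were seen and are given without a test. Of all 13719 genes tested, 0.809% were higher and 1.46% lower in the alar plate. The groups include Dlk1, Peg10, Efcab1 and Sulf1, which are among the 12 named lower genes. Of 30 tested imprinted genes, 0 were higher in the alar plate and 10 were lower (Peg3, Zim1, Ndn, Magel2, Dlk1, Rtl1, Peg10, Asb4, Calcr and Zdbf2), 27 had a log2 fold change below 0, and the median was -0.52, where all genes tested had -0.02. Magel2, of the Prader-Willi region, had 11.7, 7.74 and 10 RPKM in the alar plate, against 80.3, 84.3 and 76.0 RPKM in ventral forebrain and 14.8, 16.2 and 15.9 RPKM in ventral hindbrain, a change of -1.78 ± 0.11. Ndn, its neighbour in that region, had 355, 254 and 280.2 RPKM in the alar plate, against 883, 809 and 799 RPKM in ventral forebrain and 426, 473 and 453 RPKM in ventral hindbrain. In each the forebrain was highest and the alar plate lowest, with no overlap between the groups. Asb4 changed by -2.09 ± 0.12 and Calcr by -2.30 ± 0.25. Dlk1 with Rtl1, Peg10 with Asb4 and Calcr, and Ndn with Magel2 lie in shared imprinted clusters, so the 10 genes are not independent. Each of the 10 was also called lower against ventral forebrain alone, but only 4 (Dlk1, Peg10, Asb4 and Calcr) against ventral hindbrain alone. Rtl1 averaged 0.482 RPKM in the alar plate, 7.12 RPKM in ventral forebrain and 0.471 RPKM in ventral hindbrain, so that its call rested on the forebrain.

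Of 21 tested genes of motile cilia and ependyma, 0 were higher and 7 were lower (Rfx2, Tekt1, Enkur, Rsph9, Fam183b, Tppp3 and Efcab1), 20 lay below 0 and the median was -0.70. Over all genes tested, 0.809% were higher, 1.46% were lower and the median was -0.02. Tppp3 had 11.48, 12.2 and 14.7 RPKM in the alar plate, against 37.5, 26.4 and 29.5 RPKM in ventral forebrain and 23.5, 37.2 and 40.2 RPKM in ventral hindbrain. Foxj1, the master factor of motile cilia, had 4.63, 4.80 and 3.53 RPKM in the alar plate, against 7.63 to 8.09 RPKM in ventral forebrain and 9.003 to 10.8 RPKM in ventral hindbrain; its change of -0.90 ± 0.11 passed the adjusted p and was short of 2-fold. Of 21 tested genes of heparan sulfate synthesis and editing, 5 were higher (Hs3st3b1, Hs3st3a1, Hs3st4, Hs3st5 and Ndst3) and Sulf1 was lower, with a median of 0.02. Each of the 5 was also called higher against ventral forebrain alone, but only 2 (Hs3st3b1 and Hs3st3a1) against ventral hindbrain alone. Sulf1 was called lower against ventral hindbrain alone but not against ventral forebrain alone. Hs3st3b1, a 3-O-sulfotransferase, had 7.97, 15.1 and 9.67 RPKM in the alar plate, against 1.12, 0.335 and 0.366 RPKM in ventral forebrain and 0.836, 0.516 and 0.306 RPKM in ventral hindbrain (2.90 ± 0.24). Hs3st3a1 and Hs3st3b1 share a near-identical catalytic part, so reads may be split between them and their separate levels are uncertain.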
